A study of Mus musculus with 10 samples.

Results

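Long intergenic non-coding RNAs (lincRNAs) are named as transcripts of genes that lie between protein-coding genes and are not translated into a protein. Some of the records with this label in the table overlap other genes, coding genes among them. The genes described here are the lincRNA genes that were measurably transcribed in interscapular brown adipose tissue (iBAT), the fat depot of the mouse that burns fuel to produce heat. They were chosen from the gene table by 2 conditions: the biotype in the table was lincRNA, and the mean of the 10 mice was at least 2 CPM (the count of a gene scaled to a common library total of 1e6 counts). Gm32856, which also met both conditions, was left out. This gave 126 of the 5468 lincRNA records of the table, 2509 of them counted in some mouse. The whole table held 54347 gene records, and 10981 protein-coding records reached the same level. As the level chose the genes, the levels below are a description and were not tested.

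The tissue came from mice on the C57BL/6N background that were 12 weeks old, were fed chow and had been housed at 4 °C for 24 h. In 5 mice (ΔGm15551, replicates 1, 2, 4, 5 and 7) a stretch of the genome with the first exon of the lncRNA gene Gm15551 had been removed by CRISPR/Cas9, and 5 mice were wild type (replicates 2, 3, 5, 6 and 7). Per the methods of the study the line had been backcrossed for 2 generations. Whether the mice of the 2 groups sequenced here were litter mates is not given in the sources used here. Poly A RNA was sequenced, so that RNA without a poly A tail or an internal stretch of A is under-represented. The labels do not say more on the origin of the replicates, and p-values measure the spread between these 10 mice.

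Total counts ranged from 9680976 to 15771170 per mouse. Gm15551 itself had 0 counts in the 5 ΔGm15551 mice and 1, 2, 6, 7 and 0 counts in wild type replicates 2, 3, 5, 6 and 7, so that at this depth the target was near its detection limit in both groups. The 7 markers of brown adipocytes together gave 11399 to 15593 CPM in the 10 mice. Genes of skeletal muscle, which adjoins the depot, differed widely between the libraries: a list of 10 took 0.000137% to 0.301% of all counts, with over 0.01% in ΔGm15551 replicates 1 and 4 and in wild type replicates 5 and 7. Genes of Schwann cells and nerve ranged from 4.82 to 87.8 CPM in sum and those of red blood cells from 646 to 2559 CPM. Of the markers tested, 1 had an unadjusted p under 0.05 between the genotypes, as did 1.59% of all genes tested. This was Lep of white adipocytes (log2FC -1.14 in ΔGm15551, edgeR quasi-likelihood). Nnat, the other white adipocyte marker tested, had a log2FC of 0.09, and Hoxc10 was not tested. The part of these cell types in the results below was not tested. The 3 wild type mice with replicate numbers 5, 6 and 7 came from a higher series of mouse numbers than the other 7 mice, so that the series and the genotype partly coincide.

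Long non-coding RNAs act in many ways: some build nuclear bodies, some bind and titrate proteins or microRNAs, some carry small RNAs in their introns or exons, and for some only the act of transcription is known to matter. Several were named for brown fat, among them Lncbate10 and Lncbate1, which support the brown adipocyte programme in cultured cells.

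The lincRNA genes took 0.792% of all counts, and this was concentrated in a few of them. Malat1 and Neat1 together held 73.1% of the summed CPM of the 126 genes, and the 10 highest held 88.7%. Of the 126 genes, 6 reached 100 CPM, 27 lay from 10 to under 100 CPM, 29 from 5 to under 10 CPM and 64 below 5 CPM. The median was 4.90 CPM, against 21.1 CPM for protein-coding records at the same minimum. A median of 60 counts per gene and mouse lay behind these values, and 124 genes were counted in all 10 mice. Per kilobase (kb) of annotated exon, the median was 2.58 CPM per kb over the 125 genes with an annotated length. This scale allows for the length of the annotation, with the exons of all transcripts of a gene joined. It does not allow for which of the transcripts were present.

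**Figure D1:**
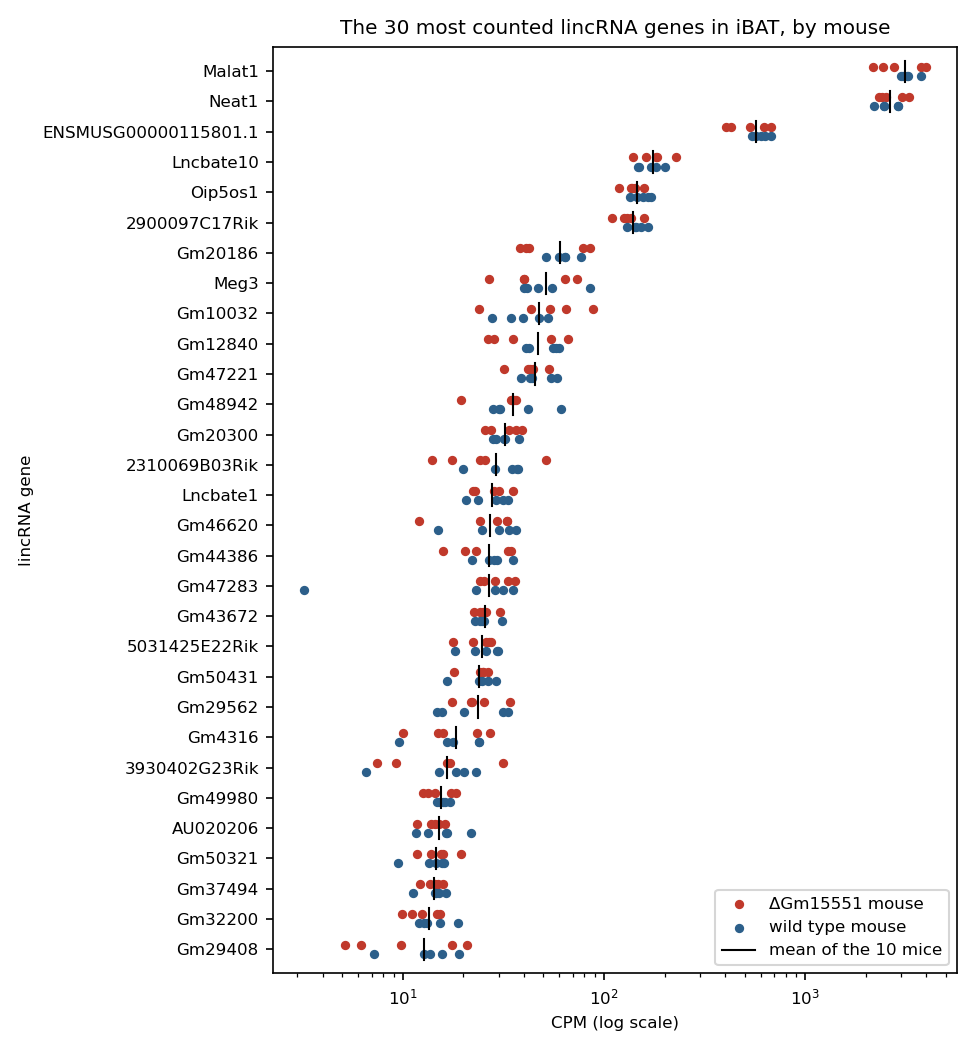
The 30 most counted lincRNA genes (rows) with their CPM on a log axis; each point is 1 mouse (red, ΔGm15551; blue, wild type) and the black line is the mean of the 10 mice. Malat1 (mean 3141 CPM) and Neat1 (mean 2647 CPM) lie apart from all others, the points of both groups are mixed in every row, and Gm47283 has 1 wild type mouse at 3.25 CPM.

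Malat1 (chr19:5795690-5802672, minus strand, GRCm38), the abundant RNA of nuclear speckles, had 3980.2, 2171, 3756, 2447 and 2774 CPM in ΔGm15551 replicates 1, 2, 4, 5 and 7 and 3196, 2990.4, 3249, 3067 and 3779 CPM in the wild type mice replicates 2, 3, 5, 6 and 7. Its neighbour Neat1 (chr19:5824708-5845478, minus strand), the scaffold of paraspeckles, had 3015, 2323, 2421, 3275 and 2535 CPM in ΔGm15551 and 2897, 2200.3, 2876, 2465 and 2466 CPM in the wild type mice. The ranges of these 2 genes overlapped, and Malat1 was the higher of the pair in 8 of 10 mice. Per kb of exon they differed more, with 449.8 CPM per kb for Malat1 and 127 CPM per kb for Neat1, as the exons of Neat1 span 20771 bases against 6983 for Malat1. These lengths join the 4 annotated transcripts of each gene. Which of the transcripts the reads came from was not tested, so the value of Neat1 would be higher if a shorter one prevailed. Malat1 is known to end without a conventional poly A tail. Its longest run of A in the annotated transcript, 12 bases, lies 298 bases before the 3′ end and is printed below with its surroundings.

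The record with the next highest count, ENSMUSG00000115801.1, has no symbol in the table. It lies on chromosome 14 (chr14:44544055-44637201, minus strand) as 1 exon of 93147 bases. It had 430.2, 624, 679.7, 530.3 and 403 CPM in ΔGm15551 and 603, 631, 571, 678 and 546 CPM in the wild type mice, which placed it below every value of Neat1 and above every other lincRNA. On the scale per kb it was far less prominent, at 6.12 CPM per kb and rank 28. Its exon contains the annotated genes Gm5624, Gm8247 and several pseudogenes, and 19.01% of its 31-base words also occur in transcripts of other genes.

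Lncbate10 (chr18:61470225-61484607, minus strand), an RNA of brown adipocytes that binds the RNA-binding protein Celf1, came next by count. It had 162.6, 140.1, 227, 184 and 182 CPM in ΔGm15551 and 172, 200.8, 181.1, 149 and 146.99 CPM in the wild type mice, and its level of 96.6 CPM per kb was rank 3. Lncbate1 (chr8:108553252-108584595, minus strand) was lower, at 27.7 ± 5.06 CPM (SD, n = 10) and 34.2 CPM per kb, rank 9. Lncbate6 had 6.15 ± 0.830 CPM (SD, n = 10). Bvht, known from the specification of heart cells, had 6.95 CPM and lies on chromosome 18 near Lncbate10. The 10 highest levels per kb belonged to Malat1, Neat1, Lncbate10, Gm12840 (74.8 CPM per kb), Gm44386 (62.8), Gm29408 (59.3), Gm20186 (57.3), Gm48942 (41.9), Lncbate1 and 2900097C17Rik (28.4).

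Oip5os1, also called Cyrano, which pairs with a microRNA and triggers its decay, had 142, 136, 157, 119 and 137 CPM in ΔGm15551 and 165, 170.4, 135, 146 and 155 CPM in the wild type mice. 2900097C17Rik is the mouse Norad gene, whose RNA binds Pumilio proteins. It had 109, 129.8, 158, 137 and 125 CPM in ΔGm15551 and 143, 166.1, 153, 144.8 and 129 CPM in the wild type mice. The ranges of these 2 genes overlapped each other and that of Lncbate10. Within mice, Lncbate10 was above 2900097C17Rik by CPM in every mouse, and above Oip5os1 in every mouse but wild type replicate 7. The order of Oip5os1 and 2900097C17Rik varied between mice. Gm20186, described below, came next, and then Meg3, a maternally expressed imprinted RNA, at 51.3 ± 17.9 CPM (SD, n = 10) and only 2.84 CPM per kb.

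The Norad transcript shows its known property in its sequence. The motif TGTANATA, to which Pumilio proteins bind, was searched on the transcript strand in the longest annotated transcript of each gene (GENCODE M21). 2900097C17Rik held 11 matches in 4915 bases, the next highest lincRNA held 6 in 93147 bases, and 24.0% of the 125 genes held at least 1. Among 2789 protein-coding transcripts within 20% of its length, 41.0% held a match, the highest count was 7 and none had 11 or more. All 11 are shown with their surroundings and with the match in capitals, so that the variable letter of the motif and the flanks can be compared.
Match 1 (chr2:156392311-156392340, minus strand): tagaagtcctgTGTATATAatatgaaaaag
Match 2 (chr2:156391815-156391844, minus strand): agtaaacatgcTGTAAATAcctttttgtta
Match 3 (chr2:156391626-156391655, minus strand): tggcttttcttTGTACATAgtgtatgtaaa
Match 4 (chr2:156391439-156391468, minus strand): actgactgctgTGTATATAgtggacaacag
Match 5 (chr2:156391338-156391367, minus strand): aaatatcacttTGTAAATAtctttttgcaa
Match 6 (chr2:156391133-156391162, minus strand): tgtgtgtatacTGTATATAatggacaaata
Match 7 (chr2:156390729-156390758, minus strand): ataatattttgTGTATATAgtttttttaaa
Match 8 (chr2:156390520-156390549, minus strand): ctttgctatgcTGTATATAttgtacatact
Match 9 (chr2:156390511-156390540, minus strand): gctgtatatatTGTACATActggacaaacg
Match 10 (chr2:156390208-156390237, minus strand): cagtactactaTGTATATAggggacaaatt
Match 11 (chr2:156389436-156389465, minus strand): cagtgagaaagTGTACATAacggattggta
The variable letter of the motif differed between matches, and matches 8 and 9 lie side by side. Matches 4, 6, 9 and 10 are followed within a few bases by the letters GGACAA. Of the 31-base words of 2900097C17Rik, 44.7% also occur elsewhere, nearly all in the record Gm7292, which itself had 0.0451 CPM.

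Runs of A inside a transcript can be captured by oligo(dT) beads in addition to a poly A tail. A run of at least 10 A was present in 28 of 125 lincRNA genes (22.4%) and in 27.2% of 10980 protein-coding genes at the same minimum level, whose longest transcripts were longer (median 3489 against 1964 bases). The runs of 4 well counted genes and of Bc1 are shown in capitals on the transcript strand.
Malat1 (chr19:5795979-5796008, minus strand): cctagctttAAAAAAAAAAAAgcaaaagac
Meg3 (chr12:109545810-109545839, plus strand): caagaccAAAAAAAAAAAAAAAAcaaaaac
Gm20186 (chr6:18845975-18846004, minus strand): gctgctgAAAAAAAAAAAAAAAgaagagga
Gm10032 (chr14:66793491-66793520, plus strand): actttagcAAAAAAAAAAAAAAtgtccaag
Bc1 (chr7:144914543-144914572, plus strand): tggAAAAAAAAAAAAAAAAAAAAAAAgaca
Bc1, the brain cytoplasmic RNA made by RNA polymerase III, is short, and its run of 23 A ends 69 bases before the 3′ end. Its level was 2.31 ± 1.71 CPM (SD, n = 10).

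Several of the genes carry small RNAs. On their own strand and inside their bounds, 7 of the lincRNA genes hold 16 annotated microRNA (miRNA) genes, for which RefSeq (GRCm38.p6) gives 28 mature sequences. Mature miRNAs are too short to be counted in this assay, so the values are those of the host transcript. Mir17hg, the host of a well-known cluster of growth-promoting miRNAs, had 3.50, 1.73, 3.53, 2.94 and 2.91 CPM in ΔGm15551 and 3.20, 3.95, 2.54, 1.97 and 4.13 CPM in the wild type mice. 6720427I07Rik, the host of 3 let-7 genes, had 4.77, 2.73, 2.40, 2.14 and 4.78 CPM in ΔGm15551 and 3.30, 2.22, 2.83, 2.85 and 4.24 CPM in the wild type mice. The groups overlapped for both hosts. The guide strands are printed with the seed (bases 2 to 8), which selects the target mRNAs, in capitals and are ordered by shared seed.
mmu-miR-17-5p (Mir17hg, chr14:115043684-115043706, plus strand): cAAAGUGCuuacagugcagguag
mmu-miR-20a-5p (Mir17hg, chr14:115044183-115044205, plus strand): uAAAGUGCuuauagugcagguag
mmu-miR-18a-5p (Mir17hg, chr14:115043867-115043889, plus strand): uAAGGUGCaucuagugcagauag
mmu-miR-19a-3p (Mir17hg, chr14:115044048-115044070, plus strand): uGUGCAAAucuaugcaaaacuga
mmu-miR-19b-3p (Mir17hg, chr14:115044358-115044380, plus strand): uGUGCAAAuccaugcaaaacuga
mmu-miR-92a-3p (Mir17hg, chr14:115044476-115044496, plus strand): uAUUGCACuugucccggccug
mmu-let-7a-5p (6720427I07Rik, chr13:48538239-48538260, minus strand): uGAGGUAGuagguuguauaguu
mmu-let-7d-5p (6720427I07Rik, chr13:48536078-48536099, minus strand): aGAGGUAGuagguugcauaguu
mmu-let-7f-5p (6720427I07Rik, chr13:48537889-48537910, minus strand): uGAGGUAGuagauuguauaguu
mmu-miR-675-5p (H19, chr7:142577112-142577133, minus strand): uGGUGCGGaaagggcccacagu
The 3 let-7 miRNAs share 1 seed, and the 6 guides of Mir17hg fall into 4 seeds. The other miRNA hosts were Meg3, Ftx, Snhg20 and 2900076A07Rik. Small nucleolar RNAs, which guide the modification of ribosomal RNA, lie inside Snhg6, Snhg12, Snhg15 and Epb41l4aos.

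Many of these transcripts contain sequence found elsewhere, which was not counted for coding genes. Of the 125 genes with annotated transcripts, 23 shared no 31-base word with a transcript of another gene on either strand, 73 shared under 10% and 24 shared over 50%. The 24 genes held 14.8% of the summed CPM once Malat1 and Neat1 were set aside, and 8 of them were among the 30 most counted. Values of such genes depend on how the counting tool divides reads and are uncertain.

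Gm20186, Gm12840 and Gm29408 were 3 short records of this kind. Gm20186 (chr6:18845910-18848207, minus strand) had 41.1, 85.1, 78.6, 42.5 and 38.4 CPM in ΔGm15551 and 59.6, 63.9, 64.2, 77.0 and 51.8 CPM in the wild type mice. Gm12840 (chr4:117700188-117700923, plus strand) had 28.5, 54.6, 66.6, 35.5 and 26.6 CPM in ΔGm15551 and 42.5, 57.9, 56.0, 59.98 and 41.2 CPM in the wild type mice. Gm29408 (chr9:90938980-90939195, plus strand) had 5.14, 17.6, 20.9, 9.77 and 6.23 CPM in ΔGm15551 and 12.8, 15.7, 19.1, 13.7 and 7.23 CPM in the wild type mice. In all 3 genes, ΔGm15551 replicates 2 and 4 were the highest of their group and replicates 1, 5 and 7 the lowest. In wild type, replicate 7 was the lowest in all 3, while the highest was replicate 6 for Gm20186 and Gm12840 and replicate 5 for Gm29408. Gm20186 and Gm12840 lie on different chromosomes and have 362 words of 30 bases in common. Gm29408 shares no word of this length with either, and 51.6% of its 31-base words occur in another gene, Gm26809, whose exons overlap 81.4% of the exon length of Gm20186 on the opposite strand. The word shown here occurs in 4 annotated genes and stands at chr6:18846289-18846318 (minus strand) in Gm20186 and at chr4:117700603-117700632 (plus strand) in Gm12840.
Shared word: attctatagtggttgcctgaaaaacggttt
Whether the shared sequence has a part in these values was not tested.

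The comparison of ΔGm15551 with wild type asks whether the lincRNA genes of cold-exposed iBAT depend on Gm15551. None of the 126 genes passed the test (edgeR quasi-likelihood, Benjamini-Hochberg over 13732 genes, smallest adjusted p = 0.9997). None of all 13732 genes did (0% called) either. At an unadjusted p under 0.05, 1 lincRNA gene was higher and 1 was lower in ΔGm15551, against 0.961% of all genes tested in the higher and 0.634% in the lower direction. These counts were near the background in the fit of all 10 mice. Together they moved to between 0 and 5 of 126 (3.97%) when 1 mouse was left out, when 1.2% to 3.02% of all genes passed. In replicates 2, 5 and 7 of each group alone, chosen for their shared numbers, 11 of 126 (8.73%) passed, against 4.00% of all genes, and none had an adjusted p under 0.05. DESeq2 and limma-voom also gave 0 genes at an adjusted p under 0.05, and 1 and 2 lincRNA genes at an unadjusted p under 0.05, when 228 (1.66%) and 248 (1.81%) of all 13732 genes passed. The median log2 fold change of ΔGm15551 over wild type (log2FC) of the 126 genes was -0.017, beside -0.001 over all genes tested, and the extremes were -0.79 and 0.56. The individual estimates were of limited precision: the median standard error was 0.22, and for 107 of the 126 genes the 95% confidence interval of the log2FC (limma-voom) stayed inside 2-fold up or down, and for 53 inside 1.5-fold.

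**Figure D2:**
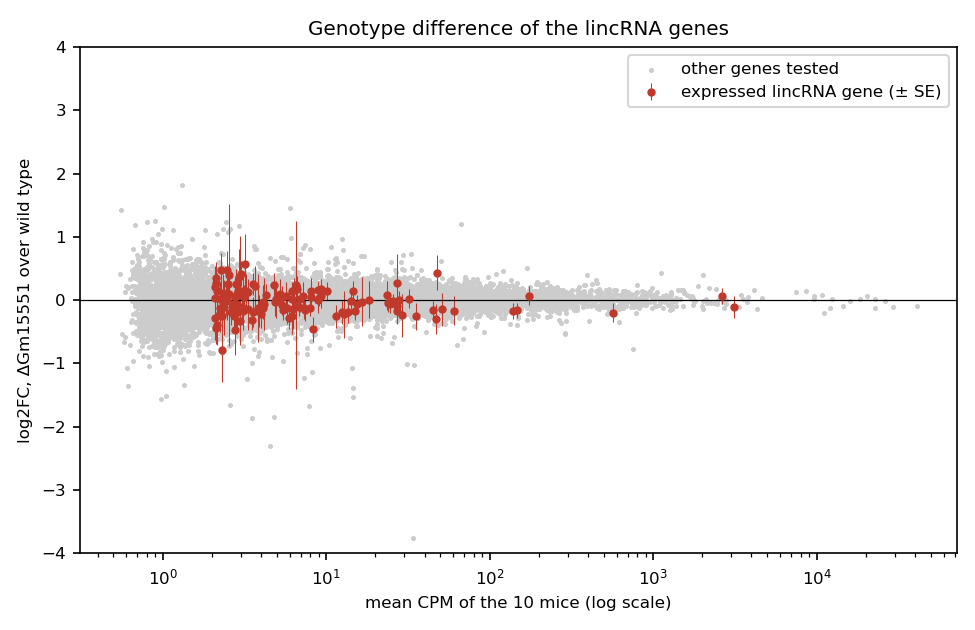
log2FC of ΔGm15551 over wild type (y axis) against the mean CPM of the 10 mice on a log axis for all 13732 genes tested (grey) and the 126 lincRNA genes (red, with the standard error). The red points scatter around 0 between -0.79 and 0.56 within the grey cloud, and H19 has the widest error bar.

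The lower gene was Gm42031 on chromosome 8 (chr8:85125872-85132289, minus strand). It had 10.4, 5.04, 6.98, 5.96 and 6.86 CPM in ΔGm15551 and 11.4, 11.7, 9.75, 6.85 and 8.78 CPM in the wild type mice. The groups overlapped, with 3 of the 5 ΔGm15551 mice above the lowest wild type mouse, and the log2FC was -0.46 ± 0.20 (SE, edgeR quasi-likelihood, unadjusted p = 0.0385, adjusted p = 0.9997). Of its 31-base words 74.2% occur in other genes. The higher gene was 4933411E06Rik on chromosome 1 (chr1:50107470-50108962, plus strand), with 2.68, 2.88, 4.13, 4.05 and 3.46 CPM in ΔGm15551 and 2.54, 2.72, 2.61, 1.97 and 2.996 CPM in the wild type mice. In 3 of the 5 ΔGm15551 mice it was above all wild type mice, and the log2FC was 0.42 ± 0.19 (SE, edgeR quasi-likelihood, unadjusted p = 0.0489, adjusted p = 0.9997).

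1110019D14Rik on chromosome 6 was the 1 lincRNA gene whose groups did not overlap in CPM (1 of 126, or 0.794%, against 0.364% of all genes tested). It had 2.76, 3.31, 3.30, 3.41 and 2.84 CPM in ΔGm15551 and 4.71, 4.03, 3.60, 3.55 and 3.51 CPM in the wild type mice. The gap between the groups was small, from 3.41 to 3.51 CPM, and the log2FC of -0.32 ± 0.16 did not pass the test (SE, edgeR quasi-likelihood, unadjusted p = 0.0629, adjusted p = 0.9997). Its 95% confidence interval ran from -0.62 to 0.01. The start of this gene lies 8 bases from that of the protein-coding gene 2610001J05Rik, which is read in the other direction and had a log2FC of 0.02 ± 0.12 (unadjusted p = 0.869 in the edgeR fit).

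Of the other genes with small p-values, Morrbid, which controls the lifespan of myeloid cells, had a log2FC of -0.44 ± 0.25. Bc1 had -0.79 ± 0.50 and BC043934 -0.28 ± 0.18. Of those estimated higher, D730003I15Rik had a log2FC of 0.47 ± 0.28, Gm15609 of 0.48 ± 0.30, Gm10032 of 0.44 ± 0.28 and 2810414N06Rik of 0.25 ± 0.18. The unadjusted p-values of these 7 genes lay between 0.107 and 0.177 in the edgeR fit, and their groups overlapped. Gm10032 had 24.1, 88.6, 53.9, 65.0 and 43.5 CPM in ΔGm15551 and 52.4, 39.6, 34.3, 47.6 and 27.9 CPM in the wild type mice, so that both its lowest and its highest value were ΔGm15551 mice.

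Among the genes with a known role, Malat1 had a log2FC of -0.11 ± 0.17 and Neat1 of 0.07 ± 0.13. Lncbate10 averaged 179 ± 32.2 CPM over the 5 ΔGm15551 and 170.0 ± 22.6 CPM over the 5 wild type mice (± SD), and Lncbate1 averaged 27.8 ± 5.38 and 27.7 ± 5.36 CPM. A list of 45 known long non-coding RNAs, written with earlier results of these data in view, had 44 entries in the table. Of these, 13 belonged to the 126 genes. Another 23 were tested but had another biotype or a level below the threshold, among them Rian, Gas5, Firre, Kcnq1ot1, Tug1 and Ctcflos. Of the 36 tested entries, 0 passed an adjusted p of 0.05 and 0 an unadjusted p of 0.05 in the edgeR fit, beside 1.59% of all genes at the unadjusted threshold, so that a count of 0 among 36 is near the background. The most precise estimates among the 13 were -0.16 ± 0.11 for Oip5os1, 0.07 ± 0.13 for Neat1 and -0.17 ± 0.12 for 2900097C17Rik. The snoRNA hosts Snhg6, Snhg12, Snhg15 and Epb41l4aos, and Snhg20, lay between -0.15 and 0.11, Dubr at -0.17, Ftx at 0.25 and Meg3 at -0.14.

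The summed CPM of the 126 genes had a mean ± SD of 7808 ± 974 for the 5 ΔGm15551 mice and of 8029 ± 439 for the 5 wild type mice. The sums ran from 6568 to 8927 CPM in ΔGm15551 and from 7444 to 8444 CPM in the wild type mice, and the difference of -221 CPM was within the spread between mice (exact permutation test over all assignments of the mice, two-sided, p = 0.659). Without Malat1, the difference was 9.70 CPM (exact permutation test, p = 0.976). Without the 3 most abundant genes, it was -51.2 CPM (exact permutation test, p = 0.405).

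The spread of the lincRNA genes between the 10 mice is given beside that of coding genes of a like level, as a description with no test. The coefficient of variation (CV, the SD over the mean of TMM-scaled CPM) had a median of 29.6% for the 64 genes from 2 to under 5 CPM, beside 25.2% for 1465 protein-coding genes in the same range. From 5 to under 20 CPM the medians were 20.9% for 40 lincRNA genes and 16.5% for 3838 protein-coding genes. At 20 CPM or more they were 17.7% for 22 lincRNA genes and 14.2% for 5661 protein-coding genes. The quartiles overlapped in every range.

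**Figure D3:**
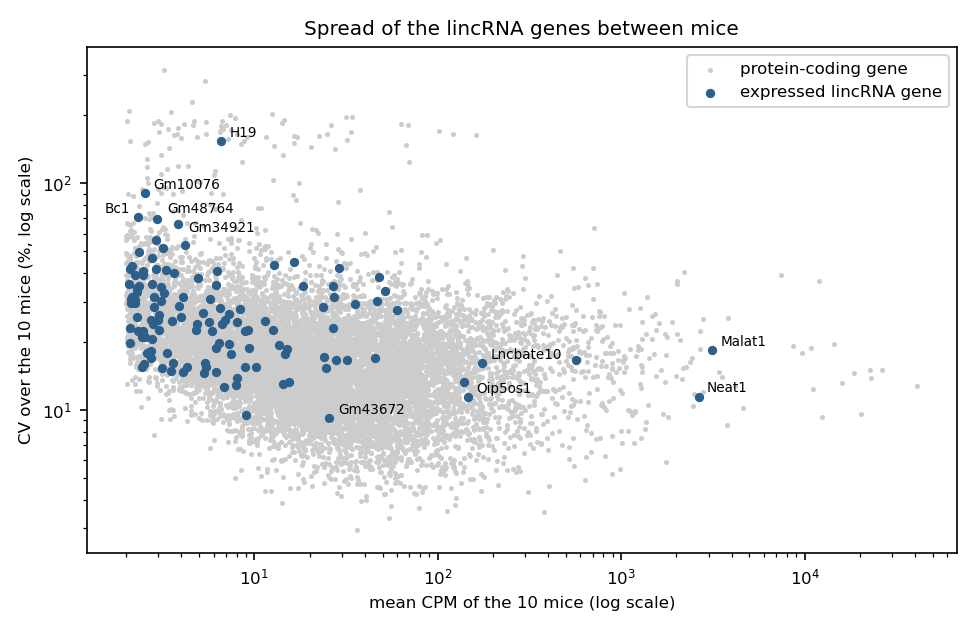
CV over the 10 mice in percent against the mean CPM, both on log axes, for the 126 lincRNA genes (blue) and protein-coding genes at 2 CPM or more (grey). H19 stands highest at 153%, Gm43672 lowest at 9.20%, and Malat1 and Neat1 lie at the right.

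H19 had the largest CV, 153%. This imprinted, maternally expressed RNA is abundant in the embryo and is kept on after birth mainly in skeletal muscle. It had 4.84, 0.936, 23.9, 0.953 and 0.970 CPM in ΔGm15551 replicates 1, 2, 4, 5 and 7 and 3.11, 0.823, 2.76, 0.444 and 27.1 CPM in the wild type mice replicates 2, 3, 5, 6 and 7. One mouse of each group was thus far above the others, and the highest was 61.0 times the lowest. The 10 skeletal muscle genes took 0.0833%, 0.000137%, 0.198%, 0.00779% and 0.000166% of all counts in the same ΔGm15551 mice and 0.00582%, 0.000280%, 0.0282%, 0.000152% and 0.301% in the same wild type mice. The 3 highest libraries were the same for both measures, and the 4 libraries under 0.001% of muscle genes all had under 1 CPM of H19. Without the 4 mice above 0.01%, the CV of H19 was 74.3%. The part of muscle tissue in the level of H19 was not tested, and in whole tissue more cells of a type and more RNA per cell cannot be told apart. The log2FC of H19 was -0.07 ± 1.33 (SE, edgeR quasi-likelihood, unadjusted p = 0.957, adjusted p = 0.9997), with a 95% confidence interval from -2.11 to 2.54. Single mice set its direction: leaving out wild type replicate 7 gave 1.84, and leaving out ΔGm15551 replicate 4 gave -1.79.

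**Figure D4:**
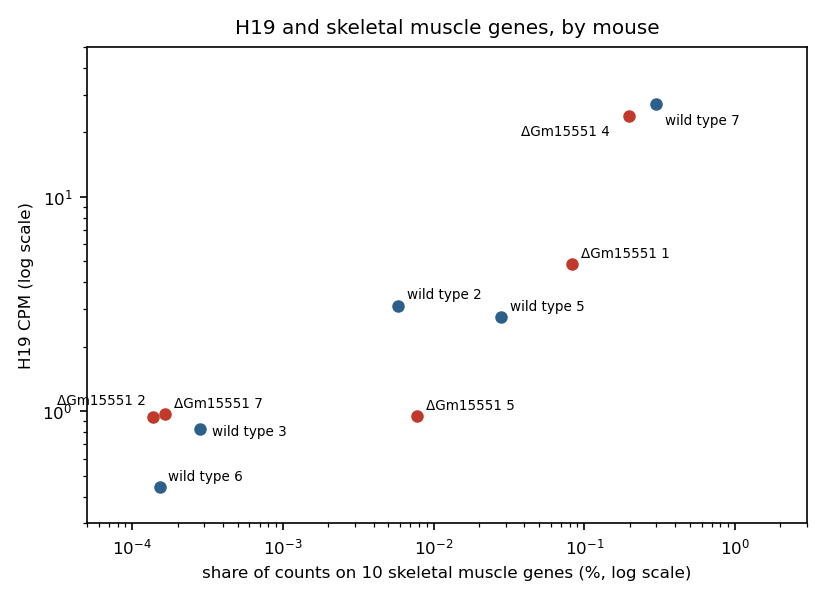
H19 CPM (y axis) against the share of counts on 10 skeletal muscle genes in percent (x axis), both on log axes; each point is 1 mouse (red, ΔGm15551; blue, wild type). ΔGm15551 replicate 4 and wild type replicate 7 are at the upper right with 23.9 and 27.1 CPM, and the mice with few muscle counts are at the lower left.

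The next largest CVs belonged to Gm10076, Bc1, Gm48764 and Gm34921. Gm10076 (CV 90.8%) shares 84.2% of its 31-base words with other genes, mostly with Rpl41, the gene of a ribosomal protein. It had 3.95, 2.02, 6.30, 0 and 2.08 CPM in ΔGm15551 and 1.79, 0, 0, 3.42 and 5.89 CPM in the wild type mice, in no order with genotype. Gm48764 (CV 69.3%) shares 96.2% and was at 0 in ΔGm15551 replicate 2 and wild type replicate 7, against 2.22 to 6.63 CPM in the other mice. A count of 0 allows up to 0.310 CPM in the shallowest library, for counting error only. Bc1 (CV 71.1%) was highest in wild type replicate 2, at 5.84 CPM, and in ΔGm15551 replicate 1, at 4.17 CPM. Gm34921 (CV 66.2%), with 3.42% shared words, ranged from 1.15 CPM in ΔGm15551 replicate 2 to 7.99 CPM in the wild type mice replicate 3.

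The smallest CVs over the 10 mice belonged to Gm43672 (9.20%), Gm43597 (9.47%) and Oip5os1 (11.4%). This order depended on the mice and on the scaling. Without the 4 mice above 0.01% of muscle genes their CVs were 9.23%, 8.87% and 14.3%, at ranks 120, 122 and 103 of 126 from the largest, and Gm50431, A530017D24Rik and Gm16973 had the smallest. With CPM by library totals over the 10 mice, the CVs of Gm43672, Gm43597 and Oip5os1 were 11.3%, 8.59% and 10.7%, and Gm43597 had the smallest. Gm43672 on chromosome 3 had 22.6, 25.1, 25.8, 30.3 and 24.2 CPM in ΔGm15551 and 31.3, 25.4, 24.8, 22.9 and 24.3 CPM in the wild type mice. It starts 510 bases from Tbl1xr1, a gene of a transcriptional co-regulator that is read in the other direction.

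The mice differed in how many of the genes stood at an extreme. Wild type replicate 7, the library of the lowest depth and the highest muscle share, had the highest value of the 10 mice for 31 of the 126 genes and the lowest for 17. ΔGm15551 replicate 2 had the lowest value for 29 and the highest for 8. Wild type replicate 2 was lowest for only 3 genes. The median deviation of the 126 genes from their means ran from -0.13 (log2, ΔGm15551 replicate 2) to 0.08 (ΔGm15551 replicate 4), and mice of both groups lay on both sides of 0.

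**Figure D5:**
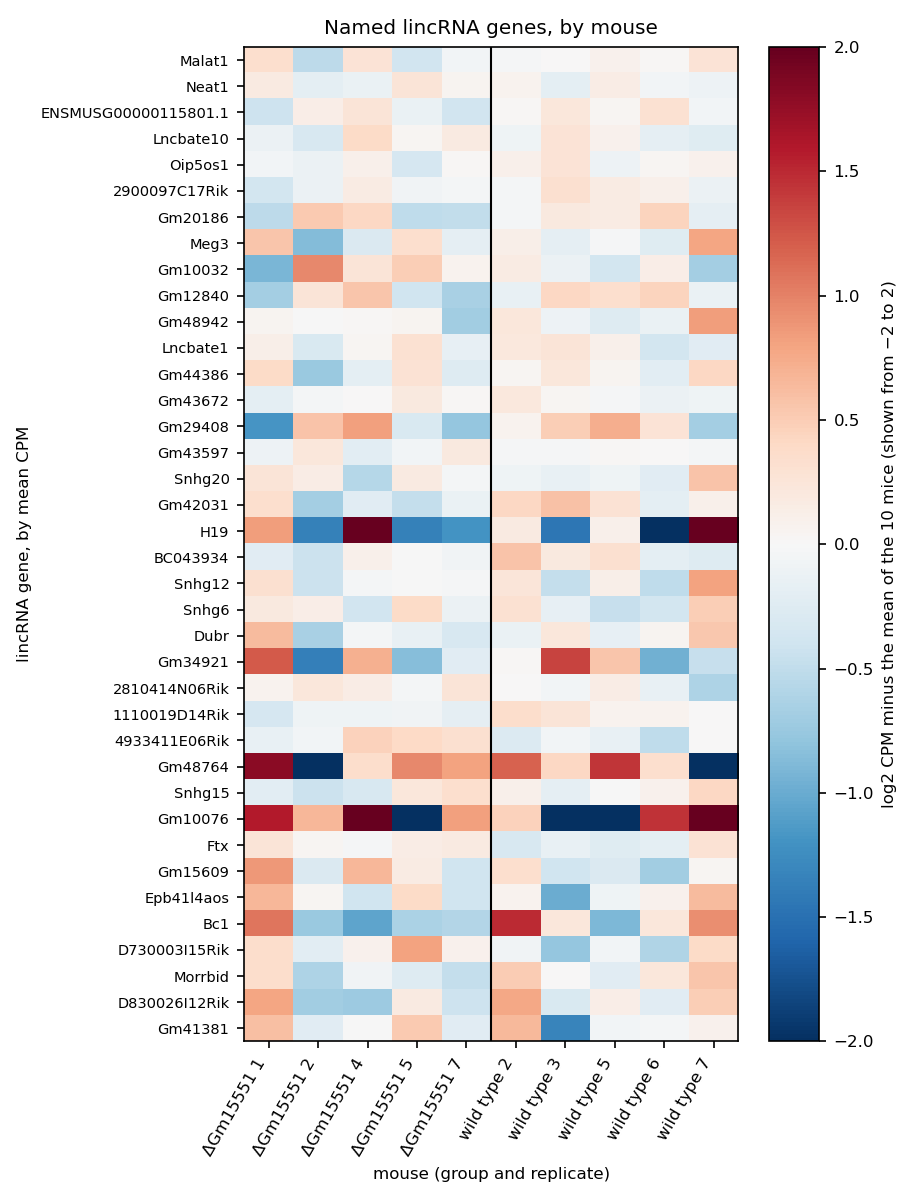
Deviation of the log2 CPM of 38 named lincRNA genes (rows, by mean CPM) from the mean of the 10 mice (columns, ΔGm15551 left of the line, wild type right), shown from -2 to 2. Gm10076, Gm48764, H19, Gm34921 and Bc1 have the strongest colours, and no row separates the 2 groups by a strong change of colour.

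Position was the last property considered. The nearest start of a protein-coding gene lay within 1 kb of the start for 15 of the 125 genes with a position, within 5 kb for 27 and beyond 50 kb for 46. A distance between starts does not exclude overlap. Exons of 24 genes overlapped another gene on the opposite strand and exons of 7 on the same strand (small RNA genes and some pseudogene types not counted). B230220B15Rik shared 71.3% of its exon length with Ndufaf2. Lncbate1 overlaps the bounds of Zfhx3, though their starts are 641951 bases apart. The nearest protein-coding genes, each counted once, numbered 83 with enough counts to be tested. Of these 0 passed an adjusted p of 0.05 in the edgeR quasi-likelihood fit, 1 was higher and 1 was lower at an unadjusted p under 0.05, and the median log2FC was -0.006. Over all 13732 genes tested these shares were 0.961% and 0.634%, so that both counts were near the background. The higher one was N4bp2l1 with its start 9815 bases from that of Gm43597 (log2FC 0.41 ± 0.18, SE). The lower one was the zinc finger gene Zfp960 (log2FC -1.04 ± 0.42, SE), whose start lies 112574 bases from that of BC002059 and in which 8.45% of the 31-base words of BC002059 occur.

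Whether lincRNA genes rose and fell with their neighbours was examined in 34 pairs: 25 with a coding gene whose start was within 5 kb, and 9 of lincRNA genes whose starts were within 100 kb. No pair passed with TMM-scaled values (permutation test with 100000 resamples, two-sided, Benjamini-Hochberg over the 34), 6 had an unadjusted p under 0.05, and 23 of the 34 correlations were positive. Most of the 6 came from 1 place on chromosome 5: 4932422M17Rik with Setd1b, with AI480526 and with Gm38102, and AI480526 with Gm38102. The others were Gm20045 with Dedd and Gm21781 with Zbtb2. No share for genes that are not adjacent is given, so these counts have no background beside them. The negative correlation with the smallest p was that of Gm20045 with Dedd, with starts 2968 bases apart on opposite strands (r = -0.74, permutation p = 0.0164, adjusted p = 0.111; Spearman rho = -0.55, permutation p = 0.104, adjusted p = 0.429; n = 10 mice). Its r was -0.28 without the 2 mice farthest from the median (exact permutation p = 0.462, adjusted p = 0.714) and -0.63 within the 7 mice of the lower number series (exact permutation p = 0.130, adjusted p = 0.489). It was -0.77 after the group means were subtracted (permutation p = 0.00751, adjusted p = 0.0851) and -0.61 with library totals (permutation p = 0.0588, adjusted p = 0.287). Its size thus depended on the mice included. The smallest p of all belonged to 4932422M17Rik and Setd1b, a gene of a histone methyltransferase, with starts 3262 bases apart (Pearson r = 0.81, permutation p = 0.00371, adjusted p = 0.0814; Spearman rho = 0.85, permutation p = 0.00299, adjusted p = 0.102; n = 10 mice). Without the 2 mice farthest from the median of the lincRNA, r was 0.78 (exact permutation p = 0.0224, adjusted p = 0.312). Within the 7 mice of the lower number series it was 0.84 (exact permutation p = 0.0135, adjusted p = 0.153). The higher number series held 3 wild type mice only, too few for a value. With CPM scaled by library totals in place of TMM, this pair did pass (r = 0.84, permutation p = 0.00138, adjusted p = 0.0469). 4932422M17Rik, AI480526 and Gm38102 lie at 1 place on chromosome 5, and AI480526 overlaps both others in exons on the opposite strand, by 1622 and 1525 bases, so that without strand their reads cannot be told apart. Lncbate10 and Gm46637, whose starts lie 159 bases apart on opposite strands, had r = 0.63 (permutation p = 0.0523, adjusted p = 0.222; Spearman rho = 0.61, permutation p = 0.0684, adjusted p = 0.388; n = 10 mice). Without the 2 mice farthest from the median, r was 0.86 (exact permutation p = 0.00818, adjusted p = 0.278). Within the 7 mice of the lower number series, r was 0.52 (exact permutation p = 0.233, adjusted p = 0.591).

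At the threshold of the selection, D830026I12Rik (2.10 CPM) and Gm41381 (2.08 CPM) were just inside, and C130083M11Rik (1.999 CPM) and Gm17484 (1.99 CPM) were just outside.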

How the data were processed

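Poly A RNA of iBAT was sequenced for 5 ΔGm15551 and 5 wild type mice. Per the methods of the study, reads were filtered with cutadapt and quantified with salmon against the transcripts of GENCODE M22, alone or joined with RNAcentral. Which of these was used for these mice is not given in the sources used here. Tool versions and the use of strand are not given in the sources used here. The values deposited by the authors were estimated counts per gene, rounded to whole numbers and not scaled for depth, with 1 column per mouse. All 10 columns were matched by name.

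CPM used library totals for the selection and for values by mouse. Genes were kept by filterByExpr (minimum count 10, minimum total count 15), which left 13732 and all 126 lincRNA genes, and were tested with edgeR 4.0.16 in R 4.3.3 (TMM, glmQLFit with robust estimation, glmQLFTest, genotype only, Benjamini-Hochberg, threshold 0.05). The SE came from the F statistic. Intervals came from limma-voom (limma 3.58.1), and log2 CPM had a prior count of 2. DESeq2 1.42.0 was an alternative, as were other scalings, filters and thresholds of the selection, each mouse left out, the replicate number as a block, and the mice without the higher number series. Fits and permutation tests were tested on simulated data.

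Positions, exon lengths, 31-base words and transcripts came from GENCODE M21 on GRCm38, which held 125 of the 126 genes (not Gm41381, and 121 with the same version), 3 of them with another biotype (Gm47283, Erdr1 and Snhg15). miRNAs came from RefSeq.

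The genes, lists and tests were chosen with earlier results of these data known. Named were the 10 highest by CPM and by CPM per kb, the 5 smallest p in each direction, the 5 largest and 3 smallest CVs, members of the list of known RNAs and the 2 genes on each side of the threshold. Gm47283, Lncbate6, Bvht, Mir17hg, 6720427I07Rik, BC002059, Gm50431, A530017D24Rik, Gm16973 and the genes of the Setd1b, Dedd and Lncbate10 pairs and, in the observations, Erdr1 fall outside this rule and were chosen after their values were seen. Pairs of mice within a group differed beyond sampling noise (smallest chi-square per degree of freedom 11.5), so no library was counted as a duplicate.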

Additional observations from a re-analysis of the deposited data

Results flagged for a closer look

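Of 76 groups of 5 mice (38 named lincRNA genes in each genotype), 6 held a mouse whose distance from the nearest other value was above Dixon's 95% critical value. Chance flags about 1 in 20 groups, but the named genes include 5 chosen for the largest CV, and 3 of the 6 values (H19 in both groups and Bc1) are of those genes, so the number is not to be set against that rate. H19 was high in ΔGm15551 replicate 4 (23.9 CPM, against 0.936 to 4.84 CPM in the others of its group) and in wild type replicate 7 (27.1 CPM, against 0.444 to 3.11 CPM), the 2 libraries with the most counts on skeletal muscle genes. Wild type replicate 7 was also high in Ftx (3.10 CPM, against 2.05 to 2.14 CPM) and in Snhg20 (13.1 CPM, against 7.23 to 8.57 CPM). Bc1 was high in ΔGm15551 replicate 1 (4.17 CPM, against 0.826 to 1.19 CPM). Gm48942 was low in ΔGm15551 replicate 7 (19.5 CPM, against 34.4 to 36.6 CPM).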

How the results depend on the processing

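No lincRNA gene passed an adjusted p of 0.05 under any of 23 other settings of the fit, nor with the selection at 1 or 5 CPM (222 or 62 genes) or with the 73 genes sharing under 10% of their words. The count at an unadjusted p under 0.05, 2 in the report, was 1 with DESeq2 size factors, library totals, no filter, the DESeq2 Wald test or the selection at 5 CPM, 4 with the selection at 1 CPM, and 0 to 5 when 1 mouse was left out (5 without ΔGm15551 replicate 1; 0 without ΔGm15551 replicate 5 or wild type replicate 2, 3 or 5). The share of all genes moved too, from 1.59% to between 1.2% and 3.02% with 1 mouse left out (3.02% without ΔGm15551 replicate 1) and to 2.80% with no filter. Chosen after seeing the data, it was 0 among the 73 genes and 5 (3.97%) without the 4 muscle-rich mice, when 2.78% of all genes passed. The replicate numbers shared by both groups do not pair the mice (correlations of deviations -0.065, 0.054 and -0.395 for numbers 2, 5 and 7). In these 6 mice the count was 8 of 126 (6.35%) with the replicate block, when 397 of 13796 genes (2.88%) passed, and 11 (8.73%) without it, when 552 (4.00%) did. The median log2FC was -0.12 with the block and -0.094 without it. In the other settings it stayed within the spread between mice (SD 0.065), though its sign turned without ΔGm15551 replicate 2 (0.009) or wild type replicate 7 (0.001).

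The count of nearest coding genes, 2, was 5 with no filter, with quality weights or with the replicate block, 1 with limma-voom or within 50 kb, and 0 to 4 when 1 mouse was left out, with the shares of all genes just given and 3.42% with quality weights (0 without wild type replicate 5, 4 without ΔGm15551 replicate 1 or 4). With library totals, 1 adjacent pair, 4932422M17Rik and Setd1b, passed an adjusted permutation p of 0.05 (r = 0.84, adjusted p = 0.0469). The summed CPM passed the exact permutation test under no setting, and its difference ran from -500.4 to 89.4 CPM when 1 mouse was left out. Of 874 log2FC values of the named genes, 80 had another sign and 11 of these moved by over 1 SE: Lncbate1 (-0.22) and H19 (1.72) without the higher number series, H19 (1.84) without wild type replicate 7 (-1.79 without ΔGm15551 replicate 4, the lowest and highest of its values with 1 mouse left out), Gm15609 (-0.21) and Gm41381 (-0.21) with the replicate block, Gm15609 (-0.21), Gm41381 (-0.20) and Gm10076 (-0.77) in the same 6 mice without it, Gm48764 (-0.94) with quality weights, and Snhg15 (0.068) and Snhg20 (0.26) without the muscle-rich mice. The causes were not tested. Depth limits the genes near 2 CPM to low counts per mouse.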

Other observations

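Gm47283, a record that GENCODE M21 places on chromosome Y, had 3.25 CPM in wild type replicate 5 and 23.2 to 36.3 CPM in the other 9 mice. Erdr1, 62.0% of whose 31-base words occur in Gm47283, had 0.636 CPM in the same mouse, 0.820 CPM in ΔGm15551 replicate 1, 1.55 CPM in wild type replicate 7 and 3.30 to 5.40 CPM in the other 7. Both were chosen after their values were seen. Whether these differences go with the sex of the mice was not tested, and the values of these 2 records do not show it.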
